A study of Mus musculus with 16 samples.

Results

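The genes described here are 10 genes of T cells and cytotoxic lymphocytes, *Cd3d*, *Cd3e*, *Cd3g*, *Cd4*, *Cd8a*, *Cd8b1*, *Lck*, *Gzma*, *Gzmb* and *Nkg7*, out of 20134 named genes with a value on every array. They were chosen by their known function, with earlier results of these data known, and a gene was represented by its brightest probe. RNA was taken from the right neocortex, rostral to bregma, of C57BL/6J mice after the left cortex had been aspirated, an operation called hemisuction. The neonatal group (NBH) was operated at postnatal day 7 (P7) and taken 1 week later (P14) or 4 weeks later (P35), and the adult group (ABH) was operated at 8 to 12 weeks of age and taken 1 week later (11 weeks) or 4 weeks later (15 weeks). Unoperated controls were taken at P7, P14, P35 and 10 weeks, and both ABH pools were compared with the same 10 weeks control, which was younger than either of them. The methods name 4 male animals for each group and state that RNA was pooled, so each of the 8 conditions is treated as 1 pool. Every pool was measured on 2 Agilent arrays, 1 labeled with Cy3 and 1 with Cy5. The dyes repeat the same RNA, and the ± values below are the SD of both dyes (n = 2), which is a technical error. No test between conditions was possible.

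The median spot signal of the arrays was 192.5 to 253, and 60.2% to 72.2% of the gene spots were well above background. The scanner software gives this flag to a spot clearly brighter than its surroundings. The share was 71.3% with Cy3 and 71.0% with Cy5 in the control at 10 weeks, and 62.8% and 68.2% in ABH 1 week. The part of this difference in the calls below was not tested. All 12 markers of neurons and cortex, all 6 of astrocytes and all 8 of oligodendrocytes were well above background in all pools. On each chip the controls lay in row 1 and the surgery pools in row 2, so chip position and surgery cannot be told apart. The number of arrays and the signal over background limit the precision of each value.

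T cells recognize antigen through a receptor whose signal is carried into the cell by the CD3 chains (CD3D, CD3E and CD3G). CD4 and the CD8 dimer (CD8A with CD8B1) are coreceptors that bind class II and class I histocompatibility molecules on the presenting cell and bring the kinase LCK to the receptor. Granzymes A and B are proteases with which cytotoxic T cells and natural killer (NK) cells kill their targets, and NKG7 is a membrane protein of their granules. Few T cells are found in healthy brain tissue, and they can enter it after an injury. In RNA from whole tissue, fewer cells of a type and less RNA per cell cannot be told apart.

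The sequences before the transcription start are shown for the members on which the results turn, which are *Cd3e* and *Cd8a*, called in 1 comparison each, and *Lck*, whose level differed most between pools. Each is the 250 bases upstream of a start in RefSeq (GRCm38.p6), written 5′ to 3′ on the strand of the gene. Capitals mark a match to AGGAAG, a core letter run bound by ETS factors, or to TGTGGT, one bound by RUNX factors, on either strand, and no window below has both motifs overlapping. *Lck* has 2 starts in the table, and *Cd8b1* and *Cd4* are named only.
Cd3e (chr9:45009612-45009861, minus strand): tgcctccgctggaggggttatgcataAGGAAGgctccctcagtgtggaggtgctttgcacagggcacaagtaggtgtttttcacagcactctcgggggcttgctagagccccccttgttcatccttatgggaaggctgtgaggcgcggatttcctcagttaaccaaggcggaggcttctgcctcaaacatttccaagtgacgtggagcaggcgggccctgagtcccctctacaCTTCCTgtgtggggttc
Cd8a (chr6:71373177-71373426, plus strand): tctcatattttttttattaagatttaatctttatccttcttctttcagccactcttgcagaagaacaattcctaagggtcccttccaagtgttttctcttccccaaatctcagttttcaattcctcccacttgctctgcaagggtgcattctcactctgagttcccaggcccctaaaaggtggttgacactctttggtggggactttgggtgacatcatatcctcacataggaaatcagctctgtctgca
Lck, upstream start (chr4:129573642-129573891, minus strand): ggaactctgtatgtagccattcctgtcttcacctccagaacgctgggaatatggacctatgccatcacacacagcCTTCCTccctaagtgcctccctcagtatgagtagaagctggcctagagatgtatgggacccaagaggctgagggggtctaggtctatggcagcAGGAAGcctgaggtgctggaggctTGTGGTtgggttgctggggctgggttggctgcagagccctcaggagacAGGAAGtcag
Lck, downstream start (chr4:129558373-129558622, minus strand): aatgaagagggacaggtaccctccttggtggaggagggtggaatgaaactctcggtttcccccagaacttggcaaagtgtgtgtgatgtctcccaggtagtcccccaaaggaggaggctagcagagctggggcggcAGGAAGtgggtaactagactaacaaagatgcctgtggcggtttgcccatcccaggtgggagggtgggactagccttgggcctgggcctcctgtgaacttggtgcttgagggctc

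Of the 8 members with an entry (9 windows), 5 windows held AGGAAG, against 29.5% of the 32851 windows of that length in the table. TGTGGT was found in 4 of the 9 windows and in 14.0% of all windows. The E-box CAGCTG was found in 0 of the 9 windows and in 13% of all windows, which says only that these letters are not in these stretches. The window of *Cd3e* had 2 matches to AGGAAG, the upstream window of *Lck* had 3 of them and 1 TGTGGT, and the window of *Cd8a* had no match to the motifs searched. A match is a description and not a binding site.

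The 10 genes fell into 3 kinds by their signal. The probes of *Cd3e*, *Cd4*, *Lck*, *Gzma* and *Nkg7* were well above background on both arrays of all 8 pools, and *Cd3d* was so in no pool. *Cd8b1* was above background in 6 pools, *Cd8a* in 2, *Cd3g* in 1 and *Gzmb* in 1. No member was saturated on any array. The control at 10 weeks held 8 of the 10 genes above background, which was the most of any pool, and NBH 1 week and NBH 4 weeks held 5 each. Levels are given on a log2 scale relative to the 75th percentile of the array, so that 0 is a gene as bright as that percentile, and they are compared between pools within a gene.

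**Figure D1:**
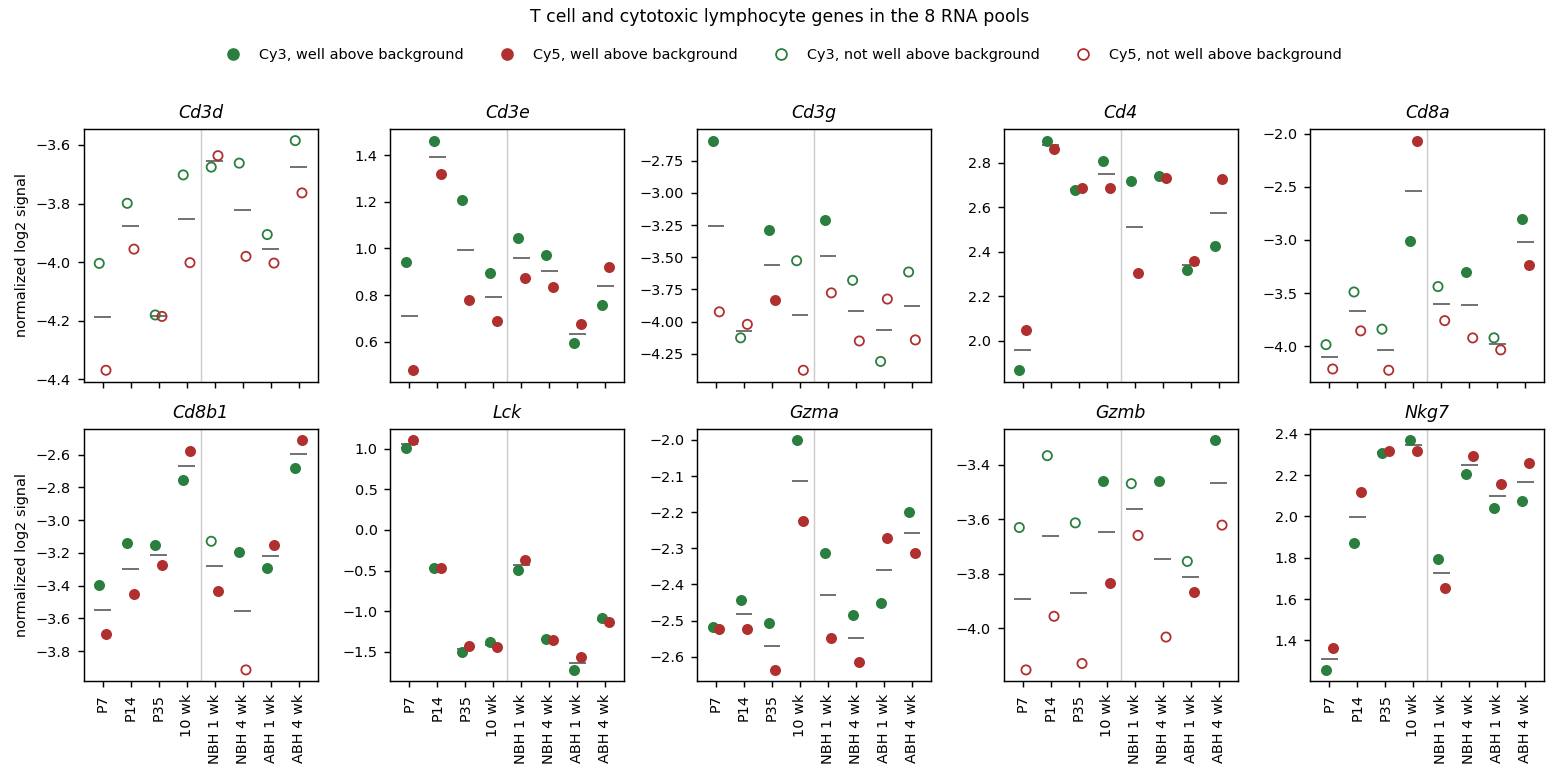
Level of each member (log2 signal minus the 75th percentile of the array) in the 4 control and 4 surgery pools; each point is 1 array (green Cy3, red Cy5), a filled point is well above background, an open point is not, and the gray bar is the mean of both dyes. *Lck* is highest at P7 in this plot, and all points of *Cd3d* are open.

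Among the CD3 chains, *Cd3e* was 0.71 ± 0.33 in the control at P7, 1.39 ± 0.10 at P14, 0.99 ± 0.30 at P35 and 0.79 ± 0.14 at 10 weeks. After neonatal surgery it was 0.96 ± 0.12 at 1 week and 0.90 ± 0.10 at 4 weeks, and after adult surgery 0.64 ± 0.06 at 1 week and 0.84 ± 0.12 at 4 weeks. The control at P14 lay above every other pool with both dyes, and from the second to the last pool each overlapped its neighbor in the order of the levels.

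*Cd3g* was above background on both arrays in the control at P35, where it was -3.29 with Cy3 and -3.83 with Cy5. In the control at P7 it was -2.60 with Cy3 and, not well above background, -3.92 with Cy5, so the dyes of this pool differed by more than the means of any pair of pools. *Cd3d* was between -4.19 (control at P7) and -3.66 (NBH 1 week) as a mean of both dyes, with no array above background. Its neighbor in the genome is *Cd3g*, and neither gave a level that separates the pools.

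*Lck*, the kinase next to the receptor, differed most between pools. It was 1.06 ± 0.07 in the control at P7, -0.47 ± 0.003 at P14, -1.47 ± 0.05 at P35 and -1.41 ± 0.04 at 10 weeks. The level at 10 weeks was thus 5.54-fold below that at P7, with a log2 change of -2.39 with Cy3 and -2.55 with Cy5. The change kept its sign under the other scalings, between -2.78 and -2.49. After neonatal surgery it was -0.43 ± 0.09 at 1 week and -1.35 ± 0.01 at 4 weeks, and after adult surgery -1.65 ± 0.11 at 1 week and -1.11 ± 0.03 at 4 weeks. NBH 1 week overlapped with the control of its age at P14, and the controls at 10 weeks and P35 overlapped with each other. ABH 4 weeks lay above both of these controls and ABH 1 week below both, with either dye. In the gene table *Lck* overlaps with the microRNA gene *Mir8119*.

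The coreceptor *Cd4* was 1.96 ± 0.13 in the control at P7, 2.88 ± 0.03 at P14, 2.68 ± 0.01 at P35 and 2.75 ± 0.09 at 10 weeks. The NBH pools were at 2.51 ± 0.29 after 1 week and 2.74 ± 0.01 after 4 weeks, and the ABH pools at 2.34 ± 0.03 and 2.58 ± 0.21. With this brightest probe the control at P7 was the lowest with both dyes, the control at P14 the highest, and ABH 1 week lay below the control at 10 weeks with both.

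*Cd8a* was not well above background on any array of the controls at P7, P14 and P35, where its means were between -4.10 and -3.67. In the control at 10 weeks it was -3.01 with Cy3 and -2.06 with Cy5, both above background. In ABH 4 weeks it was -2.80 with Cy3 and -3.23 with Cy5, again above background. In ABH 1 week it was -3.92 with Cy3 and -4.04 with Cy5, and neither array was above background. The 2 pools that held *Cd8a* above background were the 10 weeks control and ABH 4 weeks, with a dye SD of 0.67 and 0.31.

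*Cd8b1*, which encodes the other chain of the CD8 dimer, was -3.55 ± 0.21 in the control at P7, -3.30 ± 0.22 at P14, -3.21 ± 0.09 at P35 and -2.67 ± 0.13 at 10 weeks. The NBH pools were at -3.28 ± 0.21 after 1 week and -3.56 ± 0.51 after 4 weeks, each with only 1 array above background, and the ABH pools at -3.22 ± 0.10 and -2.60 ± 0.12. The control at 10 weeks and ABH 4 weeks were again the 2 highest pools, and ABH 1 week lay within the dye error of the control at P35.

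Among the cytotoxic genes, *Gzma* (granzyme A) ranged from -2.57 ± 0.09 in the control at P35 to -2.11 ± 0.16 at 10 weeks, and it overlaps with *Cdc20b* in the gene table. *Gzmb* (granzyme B) ranged from -3.89 in the control at P7 to -3.47 in ABH 4 weeks, with a dye SD of up to 0.42, so its pools were not separated. *Nkg7* was 1.31 ± 0.08 in the control at P7, 2.00 ± 0.17 at P14, 2.31 ± 0.01 at P35 and 2.34 ± 0.04 at 10 weeks, a 2.05-fold higher level at 10 weeks than at P7. It was 1.73 ± 0.10 in NBH 1 week, below the control at P14 with both dyes, and 2.25 ± 0.06 in NBH 4 weeks. The ABH pools were at 2.10 ± 0.08 after 1 week and 2.17 ± 0.13 after 4 weeks.

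A pair of probes was present for 3 members. For *Nkg7* the dimmer probe was well above background on no array, while the brighter one was above it on all 16. The probes used for *Cd3e*, *Cd4*, *Lck*, *Gzma* and *Nkg7* were above background in every pool. Whether they read these genes alone, and whether their signal came from T cells, was not tested, so their values are those of the probes. For *Cd4* the dimmer probe, printed as 10 spots on each array, was above background in all 8 pools. Its order of pools differed from that of the brighter probe. The highest means were -2.82 in ABH 4 weeks and -2.89 in the control at 10 weeks, beside -3.08 at P14 and -3.41 at P7. For *Cd8a* the dimmer probe, also with 10 spots, was above background on both arrays in 1 pool, ABH 4 weeks. The repeated spots give an error within an array, with an SD of 0.03 to 0.24 for *Cd4* and 0.07 to 0.23 for *Cd8a*.

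**Figure D2:**
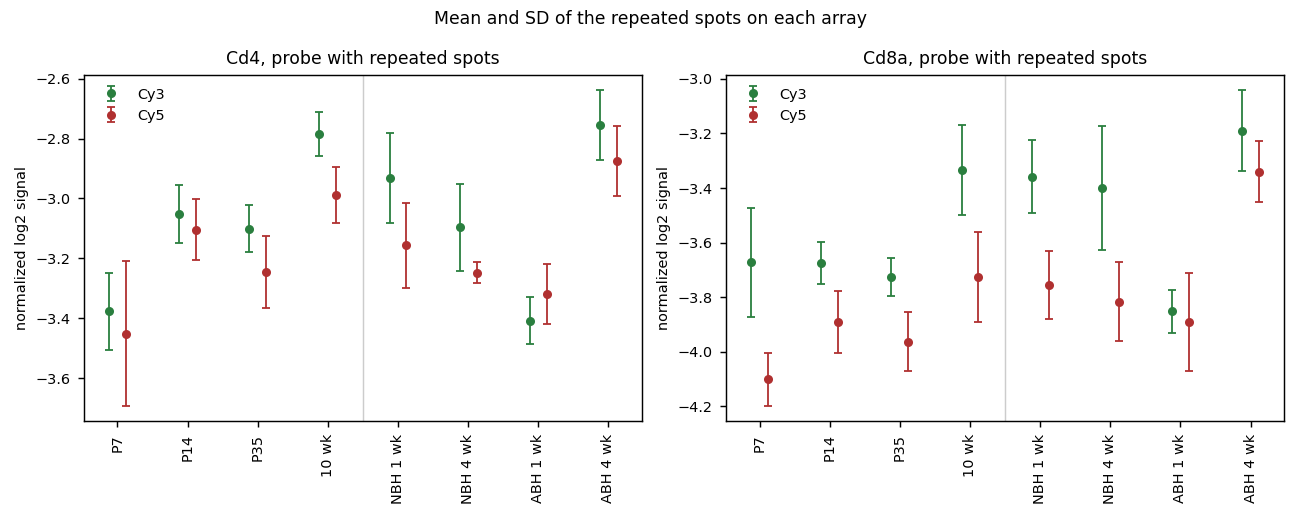
Mean and SD of the repeated spots on each array (log2 signal minus the 75th percentile) for the *Cd4* and *Cd8a* probes with 10 spots, by pool (green Cy3, red Cy5). ABH 1 week lies below the control at 10 weeks for *Cd4* with both dyes, by 0.62 and 0.33 log2.

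For the pattern of levels over the 8 pools, the named genes nearest to *Lck* were *Kcnk10*, *Pla2g3* and *Ntsr1*, with a root mean square difference of 0.13, 0.14 and 0.15 log2 after each gene was centered on its own mean. They were picked from 14466 genes above background in the same pools, whose median difference from *Lck* was 0.84. *Kcnk10* encodes a potassium channel, *Pla2g3* a secreted phospholipase and *Ntsr1* a receptor for neurotensin. Each was highest in the control at P7, with a level of 2.21, 0.57 and 2.04. The genes nearest to *Nkg7* were *Pianp*, *Pramel25* and *Ranbp3l*, at 0.06, 0.06 and 0.07 log2, against a median of 0.38. These are descriptions over 8 pools that share age and handling.

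**Figure D3:**
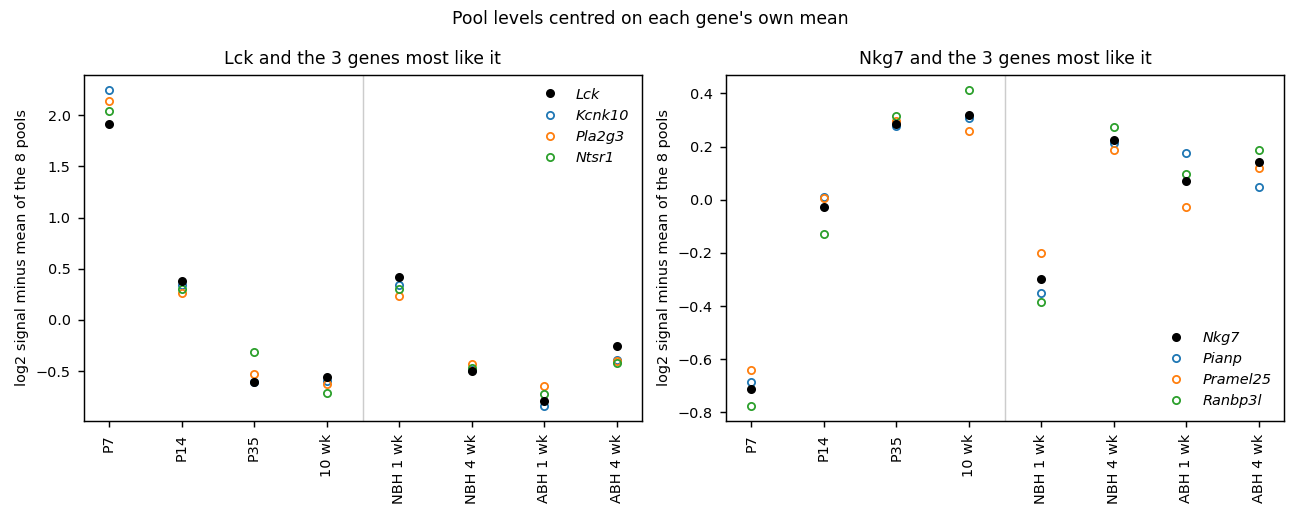
Pool levels (log2, mean of both dyes, minus the mean of the gene over the 8 pools) of *Lck* and *Nkg7* (black) and of the 3 genes most like each (open colored points), in the 4 control and 4 surgery pools. The *Lck* group is highest at P7 and the *Nkg7* group lowest there.

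To ask whether hemisuction was followed by a change of these genes in the opposite cortex, each surgery pool was compared with its control within a dye. A gene was compared if at least 1 of the 2 pools was above background on both arrays, and it was called higher at 1.5-fold or more with both dyes and lower at 0.75-fold or less with both. No member was called higher in any of the 4 comparisons, and 3 calls, all lower, were made in 2 of them. Over the compared genes, the changes measured with Cy3 and Cy5 differed with an SD of 0.32 and 0.19 log2 in the NBH comparisons (1 and 4 weeks) and of 0.24 and 0.31 in the ABH comparisons.

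**Figure D4:**
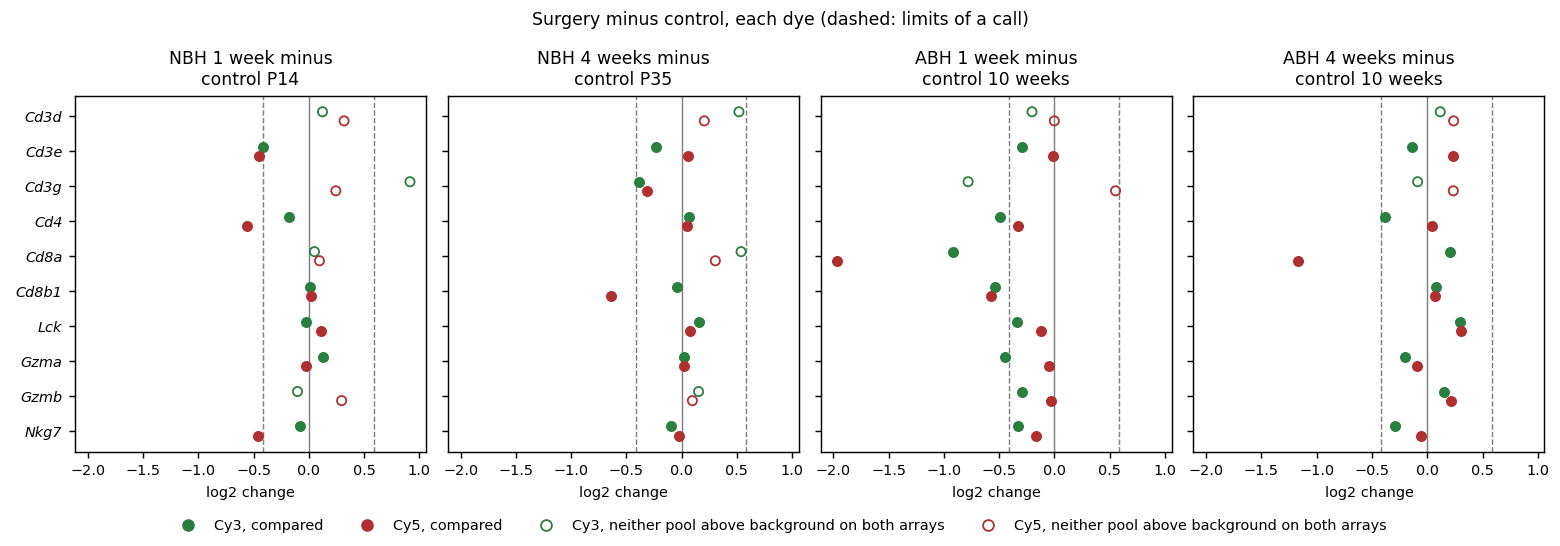
Surgery minus control for each member (log2, green Cy3, red Cy5) in the 4 comparisons; dashed lines are the limits of a call, and open points are genes above background on both arrays in neither pool. In ABH 1 week all points except 1 of *Cd3g* lie below 0.

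In NBH 1 week against the control at P14, *Cd3e* was called lower and none of the other 5 compared members was called. *Cd3e* was 1.05 with Cy3 and 0.87 with Cy5 after surgery against 1.46 and 1.32 in the control. The changes of -0.42 and -0.45 lie just past the limit of -0.415 log2, and the mean was 1.35-fold lower. In all, 0.834% of the 15467 genes compared were called, and 0.427% were called lower. *Cd4* was -0.18 with Cy3 and -0.56 with Cy5 and *Nkg7* was -0.08 and -0.46, so both passed the limit with 1 dye. The dimmer *Cd4* probe changed by 0.12 and -0.05, and its spots overlapped. *Lck* changed by 0.04 ± 0.09, *Gzma* by 0.05 ± 0.11 and *Cd8b1* by 0.02 ± 0.01. The call of *Cd3e* was lost with the processed signal (mean change -0.38), with quantile normalization (-0.43) and with limits of 1.5-fold or 2-fold in both directions. The median change of all 10 members was 0.05, beside 0.08 over all genes.

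In NBH 4 weeks against the control at P35, none of the 7 compared members was called, and 0.964% of the 15873 genes compared were. *Cd4* changed by 0.05 ± 0.02, *Gzma* by 0.02 ± 0.0005 and *Lck* by 0.12 ± 0.05. As measured, *Cd8b1* was -0.05 with Cy3 and -0.64 with Cy5, and *Cd3g* was -0.39 and -0.31. For neither gene was the surgery pool above background on both arrays. In the comparison that pool was held at the dimmest level above background, or at its own if higher. The changes were then -0.05 and -0.49 for *Cd8b1*, and -0.37 and 0.07 for *Cd3g*. The median over the 10 members was 0.04, beside 0.06 over all genes.

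In ABH 1 week against the control at 10 weeks, *Cd8a* and *Cd8b1*, which encode both chains of CD8, were called lower, and the other 6 compared members were not called. *Cd8a* was not well above background in the surgery pool, and against the dimmest level that counted as above background it was at least 2.47-fold lower, with bounds of -0.75 log2 with Cy3 and -1.85 with Cy5. *Cd8b1* was 1.47-fold lower, by -0.53 with Cy3 and -0.57 with Cy5. Of the 16319 genes compared 10.8% were called, and 6.37% were called lower. Both CD8 genes belonged to the dimmest 25% of these genes, in which 19.9% were called lower, against 1.86% of the others. Of the 4 members in that dim group, which were *Cd8a*, *Cd8b1*, *Gzma* and *Gzmb*, 2 were called.

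In the 10 weeks control *Cd8a* and *Cd8b1* were higher than at the other control ages. Against the control at P35 *Cd8a* could not be compared, since it was above background in neither pool, and *Cd8b1* changed by -0.01 and was not called. Neither was called with quantile normalization, where the changes were -1.15 and -0.25. The *Cd8a* probe with 10 spots changed by -0.52 with Cy3, where its spots did not overlap, and by -0.17 with Cy5, where they did, so it was not called. Counted over both arrays of a pool, 10 of 19 of its kept spots were above background in the control at 10 weeks. The counts were 0 of 20 in ABH 1 week and 15 of 18 in ABH 4 weeks, and these spots are technical repeats.

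The other compared members did not reach the limits with both dyes. *Cd4* changed by -0.41 ± 0.12, which is 1.33-fold lower, and passed the limit with Cy3 alone. The dimmer *Cd4* probe changed by -0.62 and -0.33, and its spots did not overlap between the pools with either dye. The spots repeat the same RNA within an array, so this gives no error between animals. *Gzma* changed by -0.25 ± 0.28, *Nkg7* by -0.25 ± 0.12, *Lck* by -0.23 ± 0.15, *Cd3e* by -0.16 ± 0.20 and *Gzmb* by -0.16 ± 0.19. In all, 9 of the 10 members were below 0 with both dyes, and *Cd3g* was below 0 with Cy3 and above it with Cy5. The 9 include *Cd3d*, which was above background on no array and was -0.0015 with Cy5. The share of all genes below 0 with both dyes is not given here. The median over the members was -0.24, beside -0.09 over all genes, and with each array scaled on its median these were 0.02 and 0.17. With that scaling the mean changes of *Cd4*, *Cd8a* and *Cd8b1* were below 0 and those of the other 7 members above it, so their sign depends on the scaling.

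In ABH 4 weeks against the same control, none of the 8 compared members was called, and 0.626% of the 16293 genes compared were. *Lck* changed by 0.30 with both dyes (± 0.005), short of the limit of 0.585 log2, and *Cd8b1* by 0.07 ± 0.01. *Cd8a* was 0.21 with Cy3 and -1.17 with Cy5, and *Cd4* was -0.39 and 0.04. The median over the members was 0.06, beside 0.08 over all genes. Since both ABH comparisons share the control, they are not independent.

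The genes around the receptor were counted in lists written from general knowledge, with earlier results of these data known. For T cell receptor signaling, 20 of the 29 genes could be compared in ABH 1 week. Of these, 2 were called higher, *Fyb* (an adaptor of immune cells, 3.26-fold) and *Il2rg* (the common cytokine receptor chain, 1.78-fold). Over all genes 4.44% were called higher and 6.37% lower. The 3 called lower were *Cd2* (an adhesion molecule, at least 1.61-fold), *Sh2d2a* (an adaptor that binds LCK, 1.45-fold) and *Icos* (a costimulatory receptor, at least 1.41-fold). *Cd2* and *Icos* belonged to the dimmest 25% of the compared genes. Of 11 compared transcription factors and cytokines of T cells 0 were called higher and 6 lower. All 6 were among the 9 genes of that list in the dimmest 25%, where 19.9% of all compared genes were called lower. The 4 with the largest change were *Eomes* (at least 1.94-fold lower), *Tbx21* (1.73-fold), *Runx3* (1.56-fold) and *Foxp3* (at least 1.40-fold). Of 9 compared cytotoxic and NK genes, *Srgn*, a granule proteoglycan of many blood cells, was called higher (1.78-fold), and *Gzmk* (granzyme K, 1.51-fold) and *Ctsw* (cathepsin W, 1.45-fold) lower. Against the control at P35, where a gene above background in neither pool could not be called, 0 genes of these 3 lists were called lower, and with quantile normalization 0, 1 and 1 were. In 6 alternatives of signal, scaling or control, 3 to 6 signaling genes were called higher and 0 to 4 lower. Of the transcription factors and cytokines 0 were called higher and 0 to 6 lower, and of the cytotoxic and NK genes 1 or 2 higher and 0 to 4 lower.

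The genes of the presenting side were counted in the same comparison. Of 13 class I histocompatibility and antigen processing genes 11 were called higher, with a list median of 1.13 log2 beside -0.09 over all genes. They included *H2-K1* (3.10-fold), *Psmb8* (an immunoproteasome subunit, 3.07-fold), *H2-D1* (2.92-fold) and *H2-Q7* (2.68-fold). The H2 genes are near copies of each other, and their probes may read more than 1 of them. Of 7 class II genes 4 were called higher, *H2-Ab1* (5.01-fold), *H2-Eb1* (3.80-fold), *Cd74* (3.15-fold) and *H2-DMb1* (2.53-fold). In 6 alternatives of signal, scaling or control, 11 or 12 of the class I genes and 4 or 5 of the class II genes were called higher, and at most 1 class I gene was called lower.

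Among 14 genes of T cell homing compared in ABH 1 week, the chemokines *Cxcl10* (15.2-fold), *Ccl5* (6.64-fold) and *Cxcl16* (1.77-fold) were called higher. *Cxcl9* (at least 1.5-fold) and the integrin chain *Itgal* (1.44-fold) were called lower, both in the dimmest 25% of the compared genes, where 19.9% were. Over all genes 4.44% were called higher and 6.37% lower. In 6 alternatives of signal, scaling or control, 3 to 5 homing genes were called higher and 0 to 2 lower, with 0 lower under median scaling and quantile normalization. In NBH 1 week, where *Cxcl10* was at least 2.73-fold higher, it was the 1 called gene of that list. In the same comparison *Lat*, the adaptor next to the receptor, was at least 2.03-fold higher as the 1 called gene of 13 compared in the signaling list, and *Ciita*, the regulator of class II genes, was at least 1.83-fold higher. *Cxcl10*, *Lat* and *Ciita* were in the dimmest 25% of the genes compared there, of which 1.45% were called higher, against 0.0603% of the others. In NBH 4 weeks no gene of the T cell, homing and histocompatibility lists was called. In ABH 4 weeks 3 were, named here after their values were seen. *Il2rb*, a cytokine receptor chain, was 1.61-fold higher, and *Tbx21* (1.65-fold) and *Eomes* (at least 1.56-fold) were lower. These genes were in the dimmest 25% of the genes compared there, of which 0.663% were called higher and 0.466% lower. With median scaling and quantile normalization 0 signaling genes were called higher in ABH 4 weeks, and against the control at P35 3 were. Of the transcription factors and cytokines 2 were still called lower with these scalings, and 0 against the control at P35. Whether the signal of *Tbx21* and *Eomes* came from T cells was not tested.

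**Figure D5:**
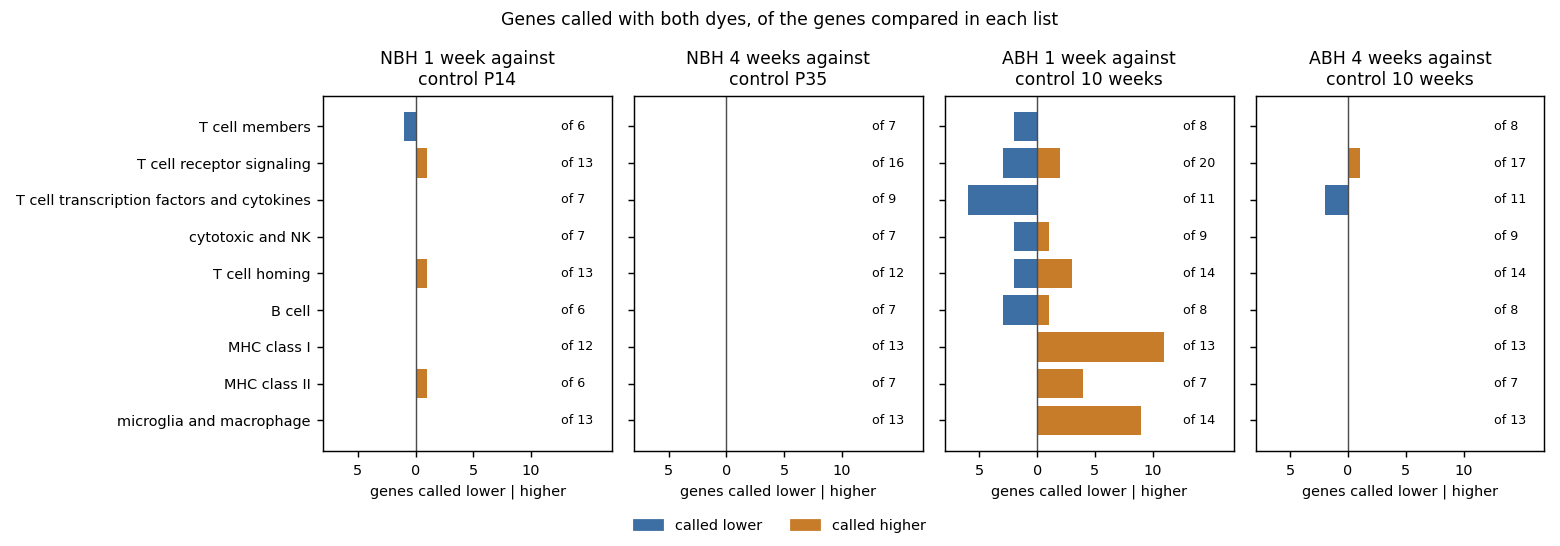
Number of genes called higher (orange, to the right) and lower (blue, to the left) with both dyes in 9 immune lists and the 4 comparisons; the number at the right is how many genes of the list were compared. ABH 1 week has 11 of 13 class I and 9 of 14 microglia and macrophage genes called higher, and no T cell member called higher.

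Markers of other cells moved in ABH 1 week, where 4.44% of all compared genes were called higher and 6.37% lower. Of 14 compared microglia and macrophage genes 9 were called higher in ABH 1 week, led by *Lyz2* (37.7-fold), *Ms4a7* (11.4-fold), *Tyrobp* (4.87-fold) and *Trem2* (4.12-fold), and the summed linear level of the list was at most 106 in the controls and reached 173 in the surgery pools. The neutrophil genes *S100a8* (4.68-fold) and *S100a9* (4.28-fold) were called higher, as 2 of 7 compared. Of 8 compared B cell genes 1 was called higher, *Cd79b* (2.01-fold), and among those called lower were *Blk* (at least 1.52-fold) and *Cd79a* (at least 1.44-fold). The red cell genes *Alas2* (4.24-fold), *Hbb-bs* (3.87-fold) and *Hbb-bt* (2.79-fold) were called higher as 3 of 5 compared, and 5 of 10 meningeal genes were, led by *Col1a1* (24.2-fold) and *Col1a2* (10.9-fold). The choroid plexus list had 7 of 10 genes called higher in NBH 1 week, 4 of 10 in NBH 4 weeks and 8 of 10 in ABH 4 weeks. Over all compared genes, 0.407%, 0.214% and 0.43% were called higher there in turn. In ABH 1 week 1 of 8 compared choroid plexus genes was called higher and 2 lower. The part of these cells in the levels of the T cell members was not tested.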

How the data were processed

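RNA of 8 pools of mouse right neocortex was hybridized to 16 Agilent 8 × 60 K arrays, 1 dye to an array. Spots were scanned and quantified by the authors with Agilent Feature Extraction 11.0.1.1 (submitters' processing notes and file headers), with the mm9 (NCBI37) build named in the headers. The deposited scanner tables hold spot intensity in fluorescence units and flags of the software as other columns, and a deposited table of 1 value per array and probe holds the processed intensity, not scaled between arrays. Both dyes of a pool carry the same RNA.

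The median signal was corrected with normexp (offset 50, limma 3.58.1, R 4.3.3). Outlier and control spots were dropped, log2 values were taken minus the 75th percentile of the gene spots of the array, and repeated spots were averaged (Python 3.11.15, numpy 2.4.6, pandas 2.3.3, matplotlib 3.10.9). A probe was above background if over 50% of its spots were. In a comparison, a pool not above background was held at the lowest level of a probe above background on that array, or at its own if higher, and the fold is then "at least". A probe was named through its RefSeq accession (GRCm38.p6 table, names only). Of 55681 probes 26582 matched, 13 of them to the 10 members. The calls were checked on simulated data. No p-value was computed, since each condition is 1 pool.

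The members, the gene lists and the rule for named genes (all members, the called genes of a list with the largest change, at most 4, where a member is called, and the 3 genes most like *Lck* and *Nkg7*) were chosen with earlier results of these data known. The alternatives were 14 planned ones and 1 added after the data were seen, the dimmer probe. The values of 1 gene of the lists are not reported here.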

Additional observations from a re-analysis of the deposited data

Results flagged for a closer look

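Pairs of comparisons that share the age at surgery or the time after it were searched for members above background on both arrays of all pools involved that changed in opposite directions with both dyes, and 4 cases were found. These differences were not tested, since each condition is 1 pool, and no error between animals is known. *Cd8b1* changed by -0.55 in ABH 1 week and 0.07 in ABH 4 weeks, a difference of -0.626 log2. *Lck* changed by -0.23 and 0.30 in the same comparisons, a difference of -0.533. Both comparisons share the 10 weeks control, so the difference is that between the ABH pools. *Cd4* changed by -0.37 in NBH 1 week and 0.05 in NBH 4 weeks, a difference of -0.425, while the dimmer *Cd4* probe changed by 0.03 and 0.0008. *Gzma* changed by 0.02 in NBH 4 weeks and -0.14 in ABH 4 weeks, a difference of 0.166. The opposite signs depended on the scaling. With each array scaled on its median, *Lck* in ABH 1 week was 0.02, *Cd4* in NBH 4 weeks -0.01 and *Gzma* in NBH 4 weeks -0.04. With the deposited values, not scaled between arrays, *Cd8b1* in ABH 4 weeks was -0.09.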

How the results depend on the processing

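The number of members called moved as follows. In NBH 1 week, 1 call (*Cd3e*) became 0 with the processed signal, quantile normalization, symmetric limits of 1.5-fold and limits of 2-fold, and it was 2 to 3 with 1 dye alone. In NBH 4 weeks, 0 became 1 (*Cd8b1*, lower) with the value table and with the 10 weeks control, and 0 to 1 with 1 dye. In ABH 1 week, 2 became 1 with median scaling (*Cd8a* left), with the filter on all 4 arrays (*Cd8b1* left), with symmetric limits (*Cd8a* left) and with the dimmer probe (*Cd8b1* left), 0 with quantile normalization, limits of 2-fold and the control at P35, and 2 to 4 with 1 dye. In ABH 4 weeks, 0 became 1 (*Cd8a*, higher) with the control at P35, and 0 to 1 with 1 dye, where the call of *Cd8a* was lower. The difference of the measured *Cd8a* levels in ABH 1 week went from -1.44 to 0.055 against the control at P35, where *Cd8a* was above background in neither pool and could not be called, so the second value gives no direction. The cause of these changes was not tested.

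The median over the members in NBH 1 week was 0.05, and -0.23 with the processed signal, -0.41 with the value table, -0.034 with median scaling, -0.15 with quantile normalization and -0.0095 to 0.059 with 1 dye. In NBH 4 weeks it was 0.04, and -0.10, -0.34, -0.026 and -0.054 with these 4 in turn, -0.0023 with normexp offset 0, 0.0305 with the mean of all probes, -0.053 with the 10 weeks control, 0.069 with the dimmer probe and 0.044 to 0.051 with 1 dye. In ABH 1 week it was -0.24 and 0.018 with median scaling, with -0.39 to -0.09 for 1 dye. In ABH 4 weeks it was 0.06, and -0.12 with the value table, 0.33 with the control at P35 and -0.01 to 0.14 with 1 dye. Of 390 single member changes recomputed, 270 stayed within the dye SD or kept their call.

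Over all genes, the share called in ABH 1 week was 10.8%, and 2.32% to 20.9% under the alternatives. It was 0.834% (0.110% to 6.38%) in NBH 1 week, 0.964% (0.132% to 7.76%) in NBH 4 weeks and 0.626% (0.0859% to 8.80%) in ABH 4 weeks. Lower calls were 58.9% of all calls in ABH 1 week, 19.8% with median scaling, which moved the median of all genes from -0.09 to 0.17 log2, 28.8% with quantile normalization and 29.8% with the control at P35. The value table moved that median from 0.06 to -0.20 in NBH 4 weeks, and lower calls from 77.8% to 98.0%. In NBH 1 week they went from 51.2% to 87.7% and in ABH 4 weeks from 31.4% to 90.9%. No paired analysis was possible because each condition is 1 pool and no result comes from a test.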
